A study of Mus musculus with 12 samples.

Results

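The E2F factors and the Rb family are the transcription factors and pocket proteins that set when a cell enters S phase. The 10 genes described here are E2f1, E2f2, E2f3, E2f4, E2f6, E2f7, E2f8, Rb1, Rbl1 and Rbl2, chosen by their symbols from a table of 41128 genes, and all 10 were found. RNA-Seq was carried out on PreMegEs, the progenitors in bone marrow from which megakaryocytic and erythroid cells arise, in 4 groups of 3 libraries, and RNA of each library came from the bone marrow of 3 mice. The mice were of the C57BL/6 background and 12 to 16 weeks old. WT PreMegEs came from wild type mice. P2+ and P2- PreMegEs came from mice of the genotype Runx1 P1-GFP::P2-hCD4/+, which carry GFP at the distal promoter P1 and truncated human CD4 at the proximal promoter P2 of one Runx1 allele, and were separated by hCD4, the reporter of P2 activity, within P1-expressing cells. KO PreMegEs came from RUNX1C knockout mice, in which the P1 isoform is lost and transcription from P2 is intact. P2+ and P2- libraries therefore differ from WT libraries both in genotype and in sort, and these cannot be told apart.

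E2F1, E2F2 and E2F3 are known as activators of genes for DNA replication, and E2F4 mostly binds these genes as a repressor together with the pocket proteins p107 (Rbl1) and p130 (Rbl2), while RB (Rb1) holds the activators. Cyclin D and cyclin E kinases phosphorylate the pocket proteins and free the E2Fs, which bind DNA as dimers with a DP partner. E2F6, E2F7 and E2F8 repress without pocket proteins: E2F6 acts within a Polycomb-like complex, and E2F7 and E2F8 bind without DP and are themselves targets of E2F.

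The promoters of 4 members are shown because they hold an E2F word, and that of E2f8 because it holds a cell cycle homology word close to its start without an E2F word. The sequences are from RefSeq on the mouse build GRCm38.p6, read 5′ to 3′ on the strand of the gene, and begin 250 bases before the annotated start. They run to 30 bases after it, or 50 for E2f2, whose start in GENCODE lies 120 bases further downstream. Capitals mark the words TTTCCCGC, TTTGGCGC, TTTCGCGC or TTTGCCGC (E2F) and TTTGAA (cell cycle homology region), searched on both strands of windows of 300 bases, so that GCGGGAAA and TTCAAA are words on the other strand.
E2f2 (chr4:136172024-136172323, + strand): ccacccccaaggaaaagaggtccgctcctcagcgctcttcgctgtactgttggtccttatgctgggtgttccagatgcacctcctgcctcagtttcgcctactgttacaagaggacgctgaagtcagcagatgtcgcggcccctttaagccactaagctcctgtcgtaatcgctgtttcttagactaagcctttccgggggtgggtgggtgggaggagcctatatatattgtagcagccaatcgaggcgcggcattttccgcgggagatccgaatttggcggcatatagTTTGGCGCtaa
E2f3 (chr13:29986034-29986313, - strand): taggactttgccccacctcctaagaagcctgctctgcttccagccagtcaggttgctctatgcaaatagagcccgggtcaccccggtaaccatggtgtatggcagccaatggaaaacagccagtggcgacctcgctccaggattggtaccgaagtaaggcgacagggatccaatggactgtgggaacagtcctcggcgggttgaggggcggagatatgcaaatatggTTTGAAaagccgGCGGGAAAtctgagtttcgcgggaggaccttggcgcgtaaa
E2f7 (chr10:110745189-110745468, + strand): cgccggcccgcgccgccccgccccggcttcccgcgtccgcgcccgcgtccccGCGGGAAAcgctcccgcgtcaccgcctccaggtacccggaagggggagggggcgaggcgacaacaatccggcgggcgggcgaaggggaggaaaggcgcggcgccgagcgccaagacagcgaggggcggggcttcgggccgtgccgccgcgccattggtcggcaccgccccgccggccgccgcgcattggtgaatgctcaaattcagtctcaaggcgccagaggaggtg
E2f8 (chr7:48881567-48881846, - strand): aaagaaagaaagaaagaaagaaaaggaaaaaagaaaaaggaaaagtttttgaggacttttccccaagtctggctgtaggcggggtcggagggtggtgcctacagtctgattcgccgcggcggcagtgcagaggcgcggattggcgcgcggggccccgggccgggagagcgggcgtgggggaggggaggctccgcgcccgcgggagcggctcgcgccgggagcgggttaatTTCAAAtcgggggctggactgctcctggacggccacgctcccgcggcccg
Rbl1 (chr2:157204505-157204784, - strand): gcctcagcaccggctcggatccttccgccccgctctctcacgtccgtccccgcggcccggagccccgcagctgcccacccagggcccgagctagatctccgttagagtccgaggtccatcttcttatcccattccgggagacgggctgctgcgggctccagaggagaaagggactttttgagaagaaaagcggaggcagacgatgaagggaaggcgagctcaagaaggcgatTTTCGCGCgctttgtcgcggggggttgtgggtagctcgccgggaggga

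Of the 10 members, 8 had a promoter in the RefSeq table, and E2f4 and Rb1 had no entry. An E2F word was found in 4 of these 8 genes, at position 39 from the start in E2f2, -11 in E2f3, -198 in E2f7 and -18 in Rbl1, and in 2.6% of the 27025 genes with a promoter. The word TTTGAA was found in 4 of the 8, namely E2f2 (in a second window inside the gene), E2f3, E2f8 and Rbl2, and in 20.2% of all genes with a promoter. The window of E2f1 holds neither word, but its RefSeq start lies 466 bases downstream of the start in GENCODE, so that the window lies inside the gene. That of E2f6 holds neither word. A match is a description of the letters in these windows and not a binding site.

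Libraries held between 10726098 and 14445026 counts, so that 3 counts, the limit that a count of 0 allows, correspond to between 0.207 and 0.288 CPM (counts scaled to a common library size, after TMM), for counting error alone. The lowest value of any member in any library was 19.0 CPM, for E2f7 in P2-. Of the antigens of the PreMegE gate, Kit was read at 814 to 1087 CPM and Slamf1 (CD150) at 36.0 to 59.1 CPM on average per group. Of those the gate excludes, Fcgr3 lay between 0.543 and 1.60 CPM and Ly6a between 1.14 and 3.31 CPM, while Eng, the gene of Endoglin, was read at 104 to 128 CPM in every group. Itga2b, the gene of CD41, also excluded at the cell surface, was read at 51.0 ± 11.5 CPM in P2- and 282 ± 34.6 CPM in P2+ PreMegEs (SD, n = 3). Runx1, counted over both promoters, was at 369 ± 15.6 CPM in WT, 211 ± 7.34 in P2-, 631 ± 24.2 in P2+ and 359.8 ± 20.4 in KO PreMegEs, and since the count does not separate the isoforms it does not check the knockout of RUNX1C. Replicate 2 of P2- and replicate 2 of P2+ stood apart by 8 immediate early genes (Jun, Egr1 and others), which summed to 12938 and 8638 CPM there and to between 167 and 1239 CPM in the other 10 libraries. Where leaving out both of these libraries changed the call of a member between P2+ and P2-, the value without them is given as well.

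Per length, E2f4 was the most abundant member and E2f7 the least in every group. The order depends on the length used, here that of the exons of all transcripts. Before division by length, E2f8 was the highest member in every group, at 178 to 227 CPM on average. In WT PreMegEs E2f4 was read at 43.5 ± 1.28 RPKM (CPM per kilobase of exon, SD, n = 3) and E2f8 at 41.8 ± 1.34 RPKM, and their libraries overlapped. Rbl1 (20.3 RPKM), E2f3 (20.2 RPKM) and E2f1 (19.5 RPKM) followed with overlapping libraries, then E2f6 (15.5 RPKM) and Rbl2 (15.4 RPKM), which overlapped, and Rb1 (10.7 RPKM), E2f2 (8.78 RPKM) and E2f7 (4.40 RPKM), which did not. In P2- PreMegEs the order was E2f4, E2f8, E2f6, E2f3, Rbl1, E2f1, Rbl2, Rb1, E2f2 and E2f7, from 52.6 to 2.34 RPKM, and only the neighbours from E2f6 to E2f1 overlapped. P2+ PreMegEs ran from E2f4 at 39.9 RPKM through E2f8, Rbl1, E2f1, E2f3, Rbl2, E2f6, E2f2 and Rb1 to E2f7 at 6.95 RPKM, with overlaps between Rbl1, E2f1 and E2f3 and between E2f2 and Rb1. KO PreMegEs ran from E2f4 at 51.3 RPKM through E2f8, Rbl1, E2f3, E2f6, E2f1, Rbl2, E2f2 and Rb1 to E2f7 at 3.59 RPKM, with overlaps among the neighbours from Rbl1 to E2f1 and between E2f2 and Rb1. E2f6 thus stood 3rd of the 10 members in P2- PreMegEs and 7th in P2+ PreMegEs.

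**Figure D1:**
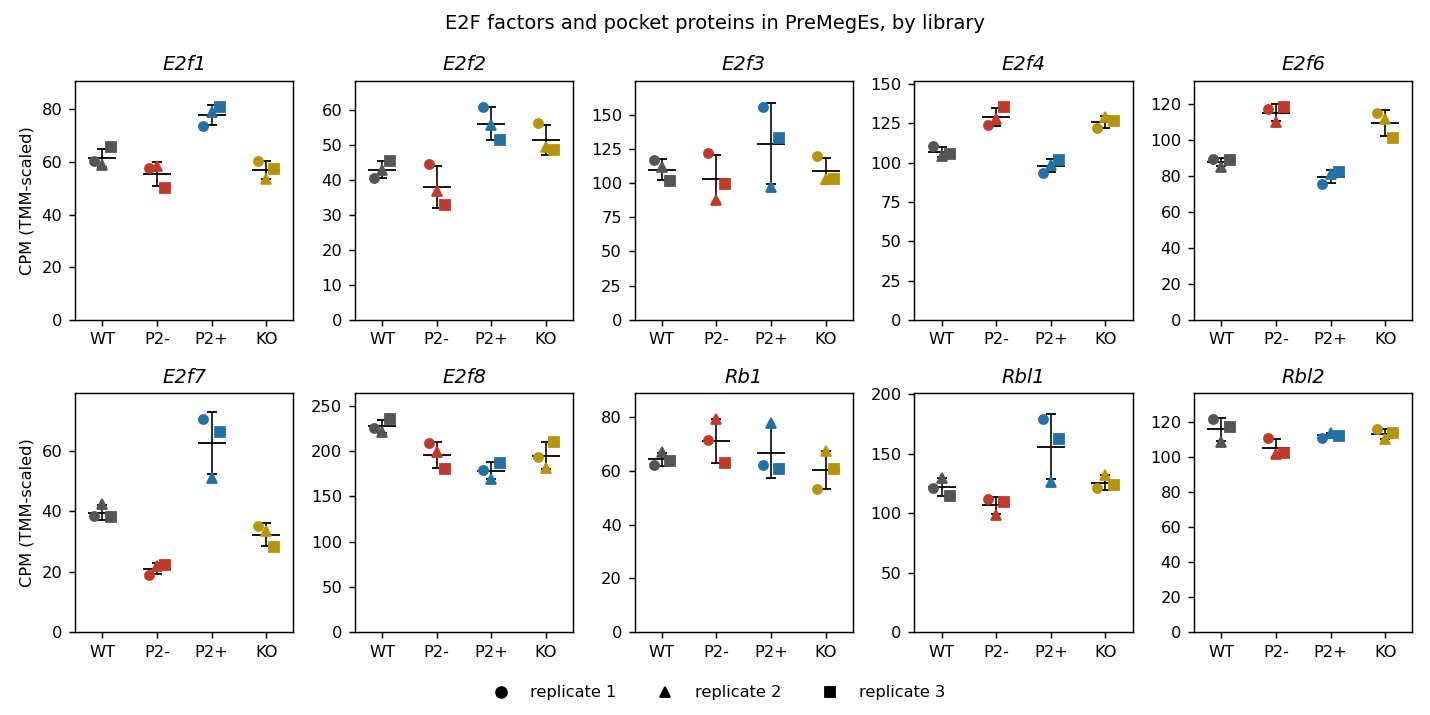
TMM-scaled CPM of each member (vertical axis, from 0) in the 3 libraries of WT, P2-, P2+ and KO PreMegEs, with symbols for the replicate number and the mean with its SD in black. E2f7 ranges from 19.0 to 22.2 CPM in P2- and from 51.0 to 70.6 CPM in P2+ PreMegEs, with WT and KO libraries in between, and E2f4 and E2f6 run the other way.

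Between P2+ and P2- PreMegEs, 6 of the 10 members changed: E2f1, E2f2, E2f7 and Rbl1 rose in P2+, and E2f4 and E2f6 fell. A gene is called changed at an adjusted p under 0.05 in edgeR's quasi-likelihood test with Benjamini-Hochberg adjustment over all genes tested, and every adjusted p given here is from that test unless another is named. Of the 12836 genes tested in this comparison 37.1% were called, 20.1% as higher in P2+ and 17.0% as lower, so that a change was common among all genes. These counts are from the fit without pairing of the libraries. With the replicate number as a block, which pairs P2+ and P2- libraries, 5 members rose and 2 fell, with E2f3 added. More of all genes were called with the block as well. The libraries of both groups did not overlap for 7 members, Rbl2 among them only at the edge, against 49.9% of all genes. E2f7 was the only member that changed at least 2-fold, as 12.7% of all genes did. The median log2 fold change over the members was 0.22, against -0.02 over all genes, and over all genes it was 0, 0.01 and 0 in P2+, P2- and KO over WT.

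P2+ PreMegEs differed from WT in 4 of 10 members, with E2f1, E2f2 and E2f7 higher and E2f8 lower, where 16.5% of 12941 genes were called (9.45% as higher and 7.07% as lower). P2- PreMegEs differed from WT in 3 members, with E2f4 and E2f6 higher and E2f7 lower, where 16.5% of 12767 genes were called (6.85% as higher and 9.60% as lower). In KO PreMegEs 3 members differed from WT, with E2f4 and E2f6 higher and E2f8 lower, where 14.9% of 12784 genes were called (6.18% as higher and 8.76% as lower). No member changed at least 2-fold against WT, while 3.84% of genes did in P2+, 4.68% in P2- and 3.41% in KO. Libraries did not overlap for 6 members in P2+ and WT, for 6 in P2- and WT, and for 5 in KO and WT, against 35.5%, 35.1% and 31.3% of all genes. Whether the KO libraries were prepared and sequenced with the others is not given in the sources used here, so in KO over WT the genotype and a possible batch cannot be told apart. These 3 comparisons share the WT libraries, so a WT library that is high or low moves all of them. In bulk RNA, fewer cells of a type and less RNA per cell cannot be told apart, and p-values measure the spread between the libraries of pooled mice.

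**Figure D2:**
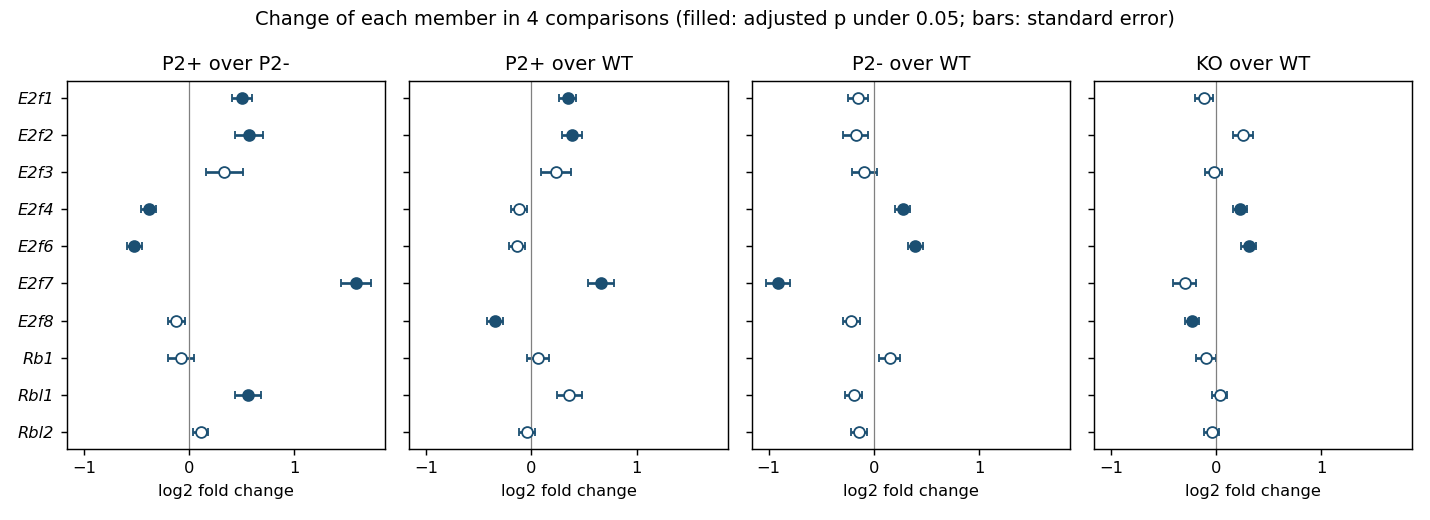
Log2 fold change of each member (horizontal axis, with its standard error) in P2+ over P2-, P2+ over WT, P2- over WT and KO over WT, with filled points at an adjusted p under 0.05. E2f7 reaches 1.58 in P2+ over P2- and -0.91 in P2- over WT, and E2f4 and E2f6 are above 0 in both P2- and KO over WT.

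The activators E2f1 and E2f2 were highest in P2+ PreMegEs. E2f1 (chr2:154559407-154569892, - strand, in the GENCODE vM21 annotation of GRCm38, as for all members) was read at 73.5, 79.1 and 81.0 CPM in the P2+ libraries, 57.9, 58.3 and 50.2 in P2-, 60.2, 58.9 and 65.6 in WT and 60.2, 53.4 and 57.4 in KO. Every P2+ library lay above every other library, and WT and KO overlapped. E2f1 rose in P2+ over P2- by a log2 fold change of 0.50 (SE 0.09, adjusted p = 0.0028) and over WT by 0.34 (SE 0.08, adjusted p = 0.0167). The call against WT was lost when 1 of 3 libraries was left out, with an adjusted p of 0.0599 without P2+ replicate 3, 0.0683 without WT replicate 1 and 0.0725 without WT replicate 2. E2f1 stood at -0.15 in P2- over WT (adjusted p = 0.311) and at -0.12 in KO over WT (adjusted p = 0.411).

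E2f2 (chr4:136172394-136196057, + strand) was read at 60.9, 55.5 and 51.5 CPM in P2+, 44.6, 36.7 and 32.7 in P2-, 40.5, 42.9 and 45.2 in WT and 56.3, 49.3 and 48.5 in KO PreMegEs. The P2+ and KO libraries overlapped and all lay above the WT and P2- libraries. E2f2 rose in P2+ over P2- by 0.57 on the log2 scale (SE 0.13, adjusted p = 0.00896) and over WT by 0.39 (SE 0.10, adjusted p = 0.0202), the latter with an adjusted p of 0.0814 without P2+ replicate 1, 0.0926 without WT replicate 1 and 0.0709 without WT replicate 2. In KO over WT the log2 fold change of 0.25 (SE 0.10, 95% interval 0.05 to 0.46) had an adjusted p of 0.0936, and over the alternatives tried it lay between 0.0753 and 0.321. E2f2 was thus the one activator whose KO libraries all lay above WT.

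E2f3 (chr13:29906575-29986063, - strand) was read at 155.9, 97.4 and 133 CPM in P2+, 122, 87.4 and 99.4 in P2-, 117, 112 and 101.3 in WT and 119.8, 103 and 103 in KO PreMegEs. Replicate 2, with its high immediate early genes, was the lowest of both P2+ and P2-, and P2+ overlapped each other group. The log2 fold change in P2+ over P2- was 0.34 (SE 0.17, 95% interval -0.06 to 0.73, adjusted p = 0.167). With the replicate number as a block, which pairs the P2+ and P2- libraries, E2f3 rose by 0.33 (SE 0.07, adjusted p = 0.00126), and without replicate 2 of both groups by 0.41 (SE 0.11, adjusted p = 0.0124). Over all fits with libraries left out the value ranged from 0.18 to 0.51, with an adjusted p of up to 0.471. In P2+ over WT the value was 0.23 (adjusted p = 0.299), and 0.40 without P2+ replicate 2 (adjusted p = 0.00992). With any 1 library left out, E2f3 ranged from 0.08 to 0.40 there, with an adjusted p of up to 0.742. E2f3 stood at -0.09 in P2- over WT and at -0.02 in KO over WT, neither past the threshold (adjusted p = 0.654 and 0.891).

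E2f4 and E2f6, the former a partner of the pocket proteins and the latter independent of them, were higher in P2- and KO than in WT and P2+ PreMegEs. E2f4 (chr8:105297663-105305370, + strand) was read at 124, 127 and 136 CPM in P2-, 122, 129 and 126 in KO, 110.3, 104 and 105 in WT and 93.3, 98.7 and 102 in P2+. All 6 libraries of P2- and KO lay above all 6 of WT and P2+, and the latter groups did not overlap either. E2f4 fell in P2+ over P2- by 0.39 on the log2 scale (SE 0.07, adjusted p = 0.00322), and rose in P2- over WT by 0.28 (SE 0.07, adjusted p = 0.0276) and in KO over WT by 0.23 (SE 0.07, adjusted p = 0.0276). Against WT the calls were not firm. That of P2- was lost with the edgeR exact test (adjusted p = 0.0706) and without P2- replicate 3 or any 1 WT library (0.0736 to 0.108), and that of KO without KO replicate 2, KO replicate 3 or WT replicate 2 (0.0743 to 0.103). P2+ over WT stood at -0.12 (adjusted p = 0.307).

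E2f6 (chr12:16810963-16839742, + strand) was read at 117, 109.9 and 119 CPM in P2-, 115, 112 and 101.2 in KO, 89.3, 85.1 and 88.9 in WT and 75.6, 81.3 and 82.1 in P2+ PreMegEs. As for E2f4, P2- and KO lay above all other libraries, and P2+ below all WT libraries. E2f6 fell in P2+ over P2- by 0.52 (SE 0.07, adjusted p = 0.000626), and rose in P2- over WT by 0.40 (SE 0.07, adjusted p = 0.00514) and in KO over WT by 0.31 (SE 0.07, adjusted p = 0.00688). These 3 calls held under all the alternatives tried. P2+ over WT stood at -0.14 (SE 0.07, adjusted p = 0.255).

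The atypical repressors E2f7 and E2f8 ran in different orders over the groups, E2f7 being highest in P2+ and E2f8 in WT. E2f7 (chr10:110745439-110787384, + strand) was read at 70.6, 51.0 and 66.2 CPM in P2+, 38.4, 42.4 and 38.0 in WT, 35.2, 33.6 and 28.2 in KO and 19.0, 21.9 and 22.2 in P2- PreMegEs. No library of one group overlapped another group, with the order P2+, WT, KO and P2-. E2f7 rose 3.00-fold in P2+ over P2- (log2 fold change 1.58, SE 0.14, adjusted p = 5.93e-05) and 1.58-fold over WT (0.66, SE 0.12, adjusted p = 0.0043). It fell in P2- over WT by 0.91 on the log2 scale (SE 0.12, adjusted p = 0.000568), and all 3 calls held under all the alternatives tried. In KO over WT the log2 fold change was -0.30 (SE 0.11, 95% interval -0.53 to -0.07, adjusted p = 0.0811). Without replicate 2 of both P2+ and P2-, where P2+ was lowest, the log2 fold change between them was 1.75.

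E2f8 (chr7:48866429-48881596, - strand) was highest in WT, with 225, 221 and 236 CPM, against 208, 199.5 and 179.8 in P2-, 179, 169 and 187 in P2+ and 193, 181 and 210.4 in KO PreMegEs. Each WT library lay above each library of the other groups, which overlapped one another. E2f8 fell in P2+ over WT by 0.35 (SE 0.08, adjusted p = 0.0111), which held under all the alternatives tried, and in KO over WT by 0.23 (SE 0.07, adjusted p = 0.0248). The KO call was lost in the fit over all 12 libraries (adjusted p = 0.0914) and without KO replicate 1, KO replicate 2 or WT replicate 3 (0.053 to 0.13). P2- over WT stood at -0.21 (adjusted p = 0.101) and P2+ over P2- at -0.12 (95% interval -0.31 to 0.06, adjusted p = 0.281), and at -0.06 without replicate 2 of both groups (adjusted p = 0.669). The ratio of E2f7 to E2f8 per length was 0.211 ± 0.028 in P2+, 0.105 ± 0.00928 in WT, 0.101 ± 0.0174 in KO and 0.0654 ± 0.00981 in P2- (SD, n = 3). Exons of Gm2788 on the other strand cover 11.2% of those of E2f8, and it was read at 2.72 to 6.63 CPM on average per group.

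Of the pocket proteins, only Rbl1 was called in any of the 4 comparisons, and that in P2+ over P2- alone. Rbl1 (chr2:157145893-157204534, - strand), which encodes p107, was read at 179, 126 and 162 CPM in P2+, 112, 98.7 and 109.5 in P2-, 121, 129.6 and 115 in WT and 121, 133 and 124 in KO PreMegEs. Replicate 2 was again the lowest library of P2+ and of P2-, and P2+ lay above P2- but overlapped WT and KO through that library. Rbl1 rose in P2+ over P2- by 0.56 (SE 0.12, adjusted p = 0.00726), and by 0.65 without replicate 2 of both groups (adjusted p = 8.63e-05). In P2+ over WT the log2 fold change of 0.36 (SE 0.12, 95% interval 0.10 to 0.62) had an adjusted p of 0.0607. It passed with the DESeq2 Wald test (adjusted p = 0.0177), without the filter on low counts (0.0194), in the fit over all 12 libraries (0.0297) and without P2+ replicate 2 (0.49, adjusted p = 0.00142). P2- over WT stood at -0.19 (adjusted p = 0.142) and KO over WT at 0.04 (adjusted p = 0.795), and the latter value turned to -0.01 without KO replicate 2 or without WT replicate 3.

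Rb1 (chr14:73183673-73325822, - strand) was read at 62.2, 77.8 and 60.8 CPM in P2+, 71.6, 79.5 and 62.9 in P2-, 62.4, 67.0 and 63.7 in WT and 53.2, 67.4 and 60.8 in KO PreMegEs. All groups overlapped, and replicate 2 was the highest library in each of them. The log2 fold change in P2+ over P2- was -0.08 (95% interval -0.36 to 0.21, adjusted p = 0.667), and turned to 0.01 without P2- replicate 2. It was 0.06 in P2+ over WT (-0.07 without P2+ replicate 2), 0.15 in P2- over WT and -0.10 in KO over WT, with adjusted p of 0.735, 0.342 and 0.549. Exons of Rcbtb2 and Lpar6 on the other strand cover 8.11% and 6.78% of those of Rb1. These genes were read at 19.1 to 33.3 CPM and 10.7 to 24.6 CPM on average per group. The paper names a strand-specific library kit, but whether the counting kept reads apart by strand is not given in the sources used here.

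Rbl2 (chr8:91070057-91123844, + strand), which encodes p130, was read at 111, 114 and 112 CPM in P2+, 111, 102 and 102 in P2-, 122, 109 and 117 in WT and 116, 111 and 114 in KO PreMegEs. No call was made. The log2 fold change was 0.11 in P2+ over P2- (95% interval -0.05 to 0.27, adjusted p = 0.252), -0.04 in P2+ over WT, -0.14 in P2- over WT and -0.04 in KO over WT (adjusted p = 0.765, 0.259 and 0.754). The lowest P2+ library of Rbl2 (111.2 CPM) and the highest P2- library (111.3 CPM) met at their edge with the scaling over all 12 libraries, and did not overlap with the scaling over the 6 libraries compared. Exons of Aktip and Gm45464 on the other strand cover 9.17% and 11.8% of those of Rbl2, and Aktip was read at 12.9 to 17.8 CPM on average per group.

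**Figure D3:**
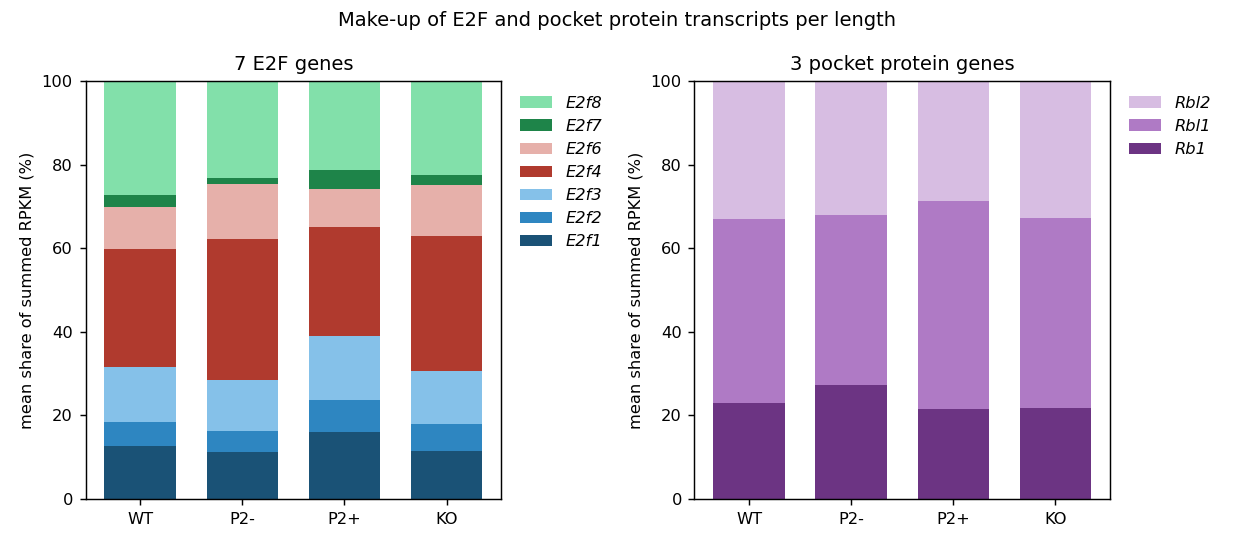
Mean share of each gene in the summed RPKM of the 7 E2F members (left) and of the 3 pocket proteins (right), in percent, for WT, P2-, P2+ and KO PreMegEs (3 libraries each). E2f1 to E2f3 take 39.0% in P2+ and 28.4% in P2- PreMegEs, and E2f4 with E2f6 take 35.2% and 46.9%.

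By transcripts per length, the activators took a larger mean share of the E2F members in P2+ PreMegEs than in the other groups. The activators E2f1 to E2f3 took 39.0% ± 1.99 of the summed RPKM of the 7 E2F members in P2+ PreMegEs, 31.6% ± 0.194 in WT, 30.6% ± 1.63 in KO and 28.4% ± 2.17 in P2- (SD, n = 3). The P2+ libraries (37.3% to 41.2%) lay above all others. In P2+ replicate 2 the activators took 37.3% and E2f4 with E2f6 37.5%, while in the other P2+ libraries the activators took the larger share. E2f4 with E2f6 took 46.9% ± 2.92 in P2- and 44.5% ± 1.78 in KO, against 38.4% ± 0.658 in WT and 35.2% ± 2.34 in P2+, with P2- and KO above all WT and P2+ libraries. E2f7 with E2f8 took 29.4% to 30.7% in the WT libraries, and 24.6% to 25.8% on average in the other groups. The ratio of E2f1 to E2f4 was 0.618 ± 0.00498 in P2+, 0.449 ± 0.0308 in WT, 0.353 ± 0.0311 in KO and 0.336 ± 0.0412 in P2-. Among the pocket proteins Rbl1 took 49.8% ± 6.08 in P2+, 45.5% ± 0.544 in KO, 43.8% ± 1.82 in WT and 40.8% ± 2.57 in P2-, and P2+ overlapped each other group. These shares are given as a description and were not tested.

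On the way from the P2- mean to the P2+ mean in CPM, WT PreMegEs lay at 27.0% for E2f1, 27.1% for E2f2, 26.1% for E2f3 and 30.9% for Rbl1, at 44.7% for E2f7, and at 71.7% and 77.4% for E2f4 and E2f6. WT was thus nearer to P2- in the activators and nearer to P2+ in E2f4 and E2f6. KO PreMegEs lay at 6.73% for E2f1, 10.6% for E2f4, 16.8% for E2f6, 27.2% for E2f7, 38.6% for Rbl1 and 74.5% for E2f2. Only E2f2 among these was nearer to P2+ than to P2- in KO. E2f8 in WT, and Rb1 and Rbl2 in WT and KO, lay outside the range between the P2- and P2+ means.

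Markers of the lineages differed between the same groups. A list of 14 erythroid genes summed to between 5897 and 6681 CPM in the P2- libraries, 5644 and 6331 in KO, 3339 and 3846 in WT and 1312 and 1546 in P2+. By group means this is the order of E2f4 and E2f6. A list of 12 megakaryocyte genes summed to between 978 and 1476 CPM in P2+, 624 and 719 in WT, 410.1 and 449 in KO and 161 and 227 in P2-. The means of this list, of the neutrophil and monocyte, the stem cell and the lymphoid lists, and of E2f7 have the same order over the groups. The list of 12 neutrophil and monocyte genes summed to between 336 and 477 CPM in P2+, 179 and 317 in WT, 92.8 and 142 in KO and 65.3 and 128 in P2-. Stem cell genes (8) summed to between 873 and 957, 605 and 658, 340.2 and 384, and 268 and 296 CPM in the same order of groups. The 10 lymphoid genes summed to between 41.5 and 96.4 CPM in P2+, 41.0 and 61.3 in WT, 37.9 and 51.6 in KO and 17.5 and 25.6 in P2-. The 7 mast cell and basophil genes summed to between 84.3 and 137 CPM in P2+, 27.9 and 47.9 in WT, 47.3 and 64.2 in KO and 24.5 and 28.3 in P2-. No count in any library was seen for 4 of the lymphoid genes in P2- and 3 in each other group, and for 5 of the mast cell and basophil genes in P2-, 3 in KO and 1 each in WT and P2+. Not every gene of a list followed its sum. Of 11 megakaryocyte genes tested, 7 were lower and 2 higher in KO over WT, where 8.76% and 6.18% of all genes were. In P2+ over WT, 7 were higher and 1 lower, where 9.45% and 7.07% of all genes were. Of 12 erythroid genes tested, 9 were lower in P2+ than in P2- and 3 were not called, where 17.0% of all genes were lower. The part of the listed cell types in the values of the members was not tested.

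Between P2+ and P2-, where 37.1% of all genes were called, 2 of 9 DP and MuvB partners and 4 of 7 genes of the E2f6 complex changed. Of the 9 DP and MuvB partners, mostly subunits of the DREAM and MYB-MuvB complexes, 2 rose in P2+ over P2- (3 with the replicate block) and none fell, with a median log2 fold change of 0.13. These were Mybl2, the MYB factor that replaces the pocket protein late in the cycle (0.58, SE 0.11, adjusted p = 0.00263), and the MuvB subunit Lin9 (0.51, SE 0.11, adjusted p = 0.00757). The DP genes Tfdp1 (-0.02, adjusted p = 0.863) and Tfdp2 (-0.06, adjusted p = 0.717) were not called between P2+ and P2-. Tfdp2 fell in KO over WT by 0.22 (SE 0.06, adjusted p = 0.0178), where 8.76% of all genes were called lower. It was the one call of the list of 9 in the comparisons with WT. This call was lost in the fit over all 12 libraries and without KO replicate 1, KO replicate 3 or WT replicate 2. Of 7 genes of the E2f6 complex, 4 fell in P2+ over P2- with E2f6 itself: the Polycomb subunits Pcgf6 (-0.78, SE 0.15, adjusted p = 0.00407) and Ring1 (-0.55, SE 0.17, adjusted p = 0.0312), the chromatin binder L3mbtl2 (-0.35, SE 0.08, adjusted p = 0.00679) and Max (-0.27, adjusted p = 0.0237), the last named after its value was seen. Rnf2, Mga and Cbx3 stood at 0.15, -0.22 and -0.22 without passing the test. With the replicate block 5 of the list fell and 1 rose, and 2 fell without P2+ replicate 1 or P2+ replicate 3. Against WT, Pcgf6 fell in P2+ (-0.65, adjusted p = 0.0157), L3mbtl2 rose in P2- (0.30, adjusted p = 0.0201), and these calls were lost without WT replicate 2 for the former, and with the replicate number as a block or without P2- replicate 1, P2- replicate 3 or any 1 WT library for the latter. Of the list no gene was called in KO. Of all genes, 16.5% were called in P2+ over WT, 16.5% in P2- over WT and 14.9% in KO over WT. The E2f6 complex lay below these shares, with 14.3%, 14.3% and 0% of its genes called.

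Among 8 genes of the kinases that phosphorylate pocket proteins, 3 rose in P2+ over P2- and 1 fell (4 and 2 with the replicate block, 4 and 1 without replicate 2 of both groups), where 20.1% of all genes were called higher and 17.0% lower. Only 2 rose with the edgeR exact test, without the filter on low counts, and without any 1 of these libraries except P2+ replicate 2. The cyclin D genes Ccnd1 (1.15, SE 0.18, adjusted p = 0.0013) and Ccnd3 (1.05, SE 0.07, adjusted p = 1.59e-05) rose, and the cyclin E gene Ccne1, also on the list of G1/S targets, fell (-1.17, SE 0.24, adjusted p = 0.00536). Against WT 3 of the 8 were called in each comparison, where 16.5% of all genes were in P2+, 16.5% in P2- and 14.9% in KO. The same cyclins were called in P2- over WT, at -0.87 for Ccnd1, -0.61 for Ccnd3 and 1.04 for Ccne1 (adjusted p = 0.00399, 0.000682 and 0.00482), and in KO over WT, at -0.62, -0.27 and 0.61 (adjusted p = 0.00226, 0.00952 and 0.0426). The call of Ccne1 in KO was lost in the fit over all 12 libraries and without KO replicate 1, KO replicate 2 or WT replicate 2, and 1 of the 2 falls there was lost without KO replicate 3. In P2+ over WT, Ccnd3 (0.43, adjusted p = 0.00523) and Ccne2 (0.80, adjusted p = 0.0134) rose, and Ccnd2 fell (-0.35, adjusted p = 0.0156), with 1 rise in the list without WT replicate 3 and no fall called in the list by the edgeR exact test or without P2+ replicate 3 or WT replicate 2. Of the kinase genes, Cdk2 had the largest adjusted p of the 3 rises in P2+ over P2- (0.21, adjusted p = 0.0392, named after its value was seen) and Cdk4 stood at -0.11 (adjusted p = 0.289). Of 7 CDK inhibitor genes, 5 passed the filter on low counts and 3 rose in P2+ over P2-, where 20.1% of all genes were called higher: Cdkn1c (1.21, SE 0.34, adjusted p = 0.0219), Cdkn2c (0.96, SE 0.12, adjusted p = 0.000283) and Cdkn2d (0.92, SE 0.13, adjusted p = 0.000615). Without replicate 2 of both groups 2 of the list rose. Over WT, where 9.45% of all genes were called higher, the same 3 rose in P2+, but none did without WT replicate 2 and 1 did without WT replicate 1 or WT replicate 3. Cdkn2c fell in P2- (-0.47, adjusted p = 0.0141), a call lost without WT replicate 1, and none was called in KO.

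Of the known targets of the family, a part of those at G1/S and nearly all listed at G2/M rose in P2+ over P2-. Of 32 G1/S genes with E2F sites, all tested, 14 rose, 2 fell and 16 were not called in P2+ over P2-. Their median log2 fold change was 0.29, where 20.1% of all genes were called higher and 17.0% lower. Of the Mcm genes listed, named after their values were seen, Mcm3 (0.29) and Mcm10 (0.33) rose. Mcm2, Mcm4, Mcm5, Mcm6 and Mcm7 stood between -0.06 and 0.08 and were not called. With the replicate block, which called 6514 of the 12836 genes tested, 16 rose and 4 fell, without replicate 2 of both groups 17 rose and 3 fell, and 9 rose and 2 fell with the edgeR exact test or without P2- replicate 3. Ccna2, the S phase cyclin (1.16, SE 0.13, adjusted p = 0.000167), and the thymidine kinase gene Tk1 (0.90, SE 0.18, adjusted p = 0.0041) had the largest values. The genes that fell were Ccne1 and, named after its value was seen, the phosphatase gene Cdc25a (-0.35, adjusted p = 0.0104). The origin licensing genes Orc1 and Cdc6 stood at -0.43 and -0.41 (adjusted p = 0.0503 and 0.052).

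Of 18 G2/M genes, targets of the DREAM complex in which p107 or p130 sits with E2F4, 17 rose in P2+ over P2- and none fell. Of the 17, 8 rose at least 2-fold, and the median of the list was 0.92. Of all genes in this comparison, 20.1% were called higher and 12.7% changed at least 2-fold in either direction, with a median of -0.02. The spindle gene Nusap1 (1.19, SE 0.12, adjusted p = 0.000118), the factor gene Foxm1 (1.13, SE 0.09, adjusted p = 2.43e-05) and the mitotic motor gene Kif11 (1.06, SE 0.12, adjusted p = 0.000219) had the largest values, and Cenpa stood at 0.01 (adjusted p = 0.946). The count was 17 without replicate 2 of both groups too. Over WT, 15 of the 18 rose in P2+ (median 0.49) and 12 fell in P2- (median -0.48), and of the 32 G1/S genes 9 rose in P2+, and 3 rose and 3 fell in P2-. Of all genes, 9.45% were called higher in P2+ over WT, and 6.85% higher and 9.60% lower in P2- over WT, which the G1/S calls in P2- were near. These counts rest on single libraries: the G2/M rises in P2+ were 8 without WT replicate 1 and 9 without WT replicate 2 or P2+ replicate 1, and the G2/M falls in P2- were 7 without WT replicate 2 or 3. The G1/S rises in P2+ ranged from 2 without WT replicate 1, 3 without WT replicate 2, 4 without P2+ replicate 1 and 5 without WT replicate 3 to 15 without P2+ replicate 2. The G1/S genes called in P2- were 1 higher and 1 lower without WT replicate 1, and 2 higher and 1 lower without WT replicate 2, WT replicate 3 or P2- replicate 3. In KO over WT, where 8.76% of all genes were called lower, 4 G2/M genes fell, with a median of -0.16: Nusap1 (-0.29, adjusted p = 0.00968), Kif11 (-0.19, adjusted p = 0.0417) and, named after their values were seen, Tpx2 (-0.43, adjusted p = 0.00757) and Cdk1 (-0.36, adjusted p = 0.0342). The count of 4 was 1 in the fit over all 12 libraries or without KO replicate 1, and 2 without KO replicate 2, KO replicate 3, WT replicate 2 or WT replicate 3. Of the G1/S genes, Ccne1 was called in KO, while 2 rose with the replicate number as a block, with the edgeR exact test or without the filter, and none did in the fit over all 12 libraries.

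**Figure D4:**
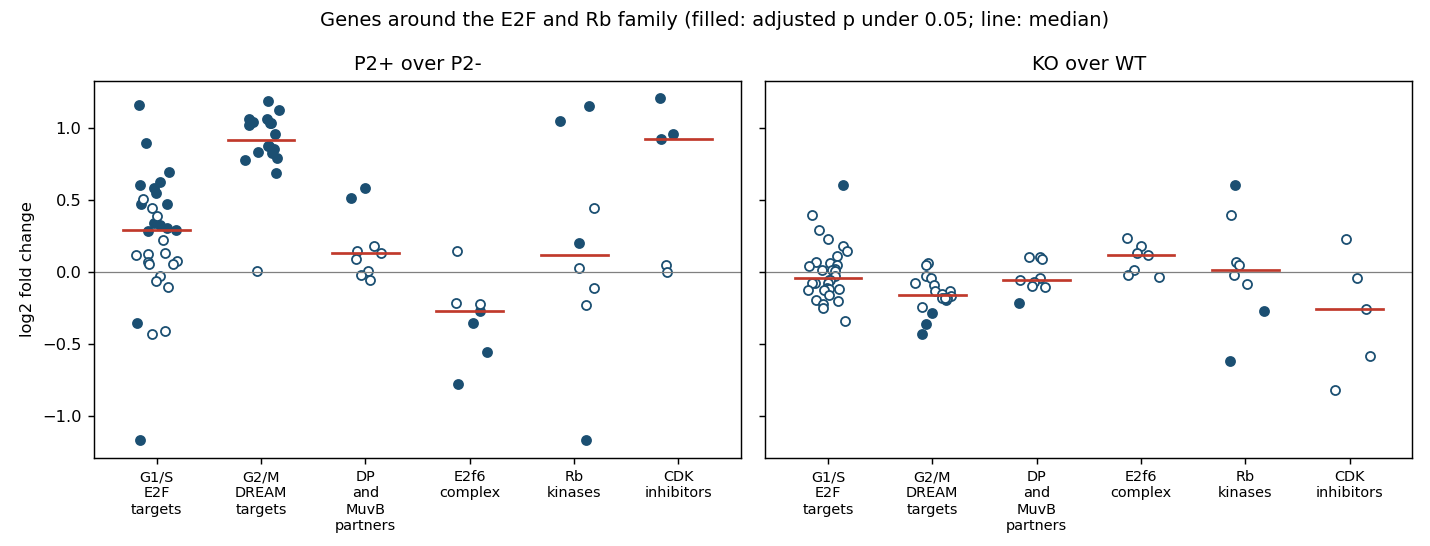
Log2 fold change (vertical axis) of the genes of 6 lists around the E2F and Rb family in P2+ over P2- (left) and KO over WT (right), with filled points at an adjusted p under 0.05 and a line at the median of the list. In P2+ over P2- the median is 0.92 for G2/M targets, 0.29 for G1/S targets and -0.27 for the E2f6 complex, and in KO over WT the medians are -0.16, -0.04 and 0.12.

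Over the 12 libraries, the levels of E2f4 and E2f6 ran most alike among the members, with a Pearson r of log2 CPM of 0.955, and both ran against E2f7 (-0.882 for each). E2f7 and Rbl1 had an r of 0.867. Among 13271 genes, the most like a member were Fkbp1a, Sptbn1 and Nwd1 for E2f7 (0.984 to 0.982), Abhd8, Antxr2 and Kif18b for E2f1 (0.971 to 0.955), Slc22a4, Dus2 and Hk1 for E2f4 (0.973 to 0.963), Tomm40, Npm3-ps1 and Wdr92 for E2f6 (0.970 to 0.966) and Dnmt3b, Fbxo5 and Trim59 for Rbl1 (0.966 to 0.962). For E2f2, E2f3, E2f8, Rb1 and Rbl2 the closest genes had an r of 0.915 (Adipor2), 0.961 (Klhl9), 0.876 (Glrx), 0.920 (Stx18) and 0.854 (Fcgr3). Fcgr3 was read at only 0.543 to 1.60 CPM on average per group, and no change of Rbl2 was called. These values describe 12 libraries of 4 groups, which share the differences between the groups, and carry no test.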

How the data were processed

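Poly(A) RNA of 12 PreMegE libraries was sequenced in pairs by the authors, aligned to GRCm38 with Bowtie2 (2.21 in the submitters' processing notes) and assigned to genes of Ensembl by featureCounts. The authors deposited the resulting counts, whole numbers per gene and library with no normalization. The paper names a strand-specific library kit. Whether strand was used in counting, and how reads with several alignments were treated, is not given in the sources used here.

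Groups were taken from the labels. Each pair of groups was fitted alone, over genes that reached 1 CPM in 3 or more of its 6 libraries, with the quasi-likelihood test of edgeR 4.0.16 (R 4.3.3) on TMM-scaled counts, with the group as the only term and Benjamini-Hochberg adjustment. All 10 members passed this filter in each comparison. The procedure was run on simulated data, with independent libraries and the same spread for all genes, and the outcome is not reported here. The simulation had no pairing and no replicate that stood apart, so it does not test the procedure under these conditions. Gene positions and exonic lengths came from GENCODE vM21 (GRCm38), which held 40254 of the 41128 genes. RPKM used the exonic length over all transcripts. Likeness was Pearson's r of log2 CPM (prior count 2).

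All members are named. Of each list, the 3 genes with the largest and the 3 with the smallest log2 fold change in P2+ over P2- may be named, and a gene outside this rule is marked as such where it is named. The list counts also cover a gene whose own values are not reported here. Members and lists were chosen with earlier results of these data known.

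Deviations from the group means were correlated across genes between P2+ and P2- libraries that share a replicate number (0.386, 0.572 and 0.405), which was taken as a pairing. No such pairing was found in the other comparisons. Alternatives were a replicate block, DESeq2 1.42.0 size factors and its Wald test, the edgeR exact test, no filter, a fit over all 12 libraries and each library left out. A fit without replicate 2 of both P2+ and P2- was added after seeing the data.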

Additional observations from a re-analysis of the deposited data

How the results depend on the processing

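The values of members are log2 fold changes, and the cause of each shift was not tested. Of the members, the sign turned in values close to 0 with no call: with 1 library left out, Rb1 ranged from -0.192 to 0.007 in P2+ over P2- (0.007 without P2- replicate 2) and from -0.065 to 0.124 in P2+ over WT (-0.065 without P2+ replicate 2). E2f3 ranged from -0.228 to 0.008 in P2- over WT (0.008 without P2- replicate 2) and from -0.092 to 0.019 in KO over WT (0.012 without KO replicate 2, 0.015 without KO replicate 3 and 0.019 without WT replicate 1). Rbl1 ranged from -0.007 to 0.087 in KO over WT (-0.006 without KO replicate 2 and -0.007 without WT replicate 3). In the same way, the genes called ranged from 1213 to 2447 in P2+ over WT (2138 with all), from 1068 to 2189 in P2- over WT (2101) and from 1194 to 1648 in KO over WT (1910), and the members called from 2 to 6 and from 1 to 3 in the first and last of these, the lowest without WT replicate 1 or 2 and without KO replicate 2. The replicate block called 6514 genes in P2+ over P2- (4762 without it) and changed 1 call of a member there, that of E2f3. Against WT, where the samples share only a number, it called 1901, 1469 and 2091 genes in P2+, P2- and KO and ended the call of E2f4 in P2- (adjusted p = 0.0769). Scaling by DESeq2 size factors turned no sign of a member. A left-out library leaves groups of 3 and 2, and the lowest value of a member, 19.0 CPM, compares with a 3-count limit of at most 0.288 CPM.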

Other observations

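E2f5, which is not among the 10 members and was looked at after their values were seen, was read at 2.92 ± 0.703 RPKM in WT PreMegEs (SD, n = 3), below E2f7 (4.40 RPKM), and at 3.55 ± 0.847 RPKM in P2-, above E2f7 (2.34 RPKM). Its libraries lay between 4.39 and 6.65 CPM in WT, 5.41 and 8.07 in P2-, 4.49 and 6.20 in P2+ and 4.37 and 5.99 in KO PreMegEs, and all groups overlapped.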
